A study of Mus musculus with 12 samples.

Results

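The genes described here are 7 genes of the translation machinery, chosen by name from the 35129 gene entries of the table: the ribosomal protein genes Rpl35a and Fau, the initiation factor genes Eif4a2, Eif4g1 and Eif2b5, the termination factor gene Gspt1, and Abcf3. Earlier results of these data were known when they were chosen, so their counts beside those of all entries are descriptions. The RNA came from cortical neurons aspirated by hand under fluorescence. Sst-neurons were somatostatin-positive interneurons of GIN mice (strain background FVB) whose enhanced green fluorescent protein labels some of these cells, and Thy1-neurons were layer V pyramidal neurons of YFPH mice (strain background B6), in which yellow fluorescent protein is expressed from a Thy1 transgene. Male mice of 20 g, aged 5 to 7 weeks, received nicotine hydrogen tartrate at 48 mg/kg/d or saline through a subcutaneous mini pump over 14 days, and 30 cells of a single mouse went into each library. The libraries analysed were 3 of Sst, 2 of Sst+Nic, 2 of Thy1 and 3 of Thy1+Nic, and the remaining 2 of the 12 samples were not analysed here. Cell type, strain and reporter line were the same split of the mice, so that they cannot be told apart in any difference between Sst- and Thy1-neurons.

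The fragments counted in the table ranged from 2915738 to 4878326 per library. Of these, the 13 mitochondrially encoded genes took 16.3% to 22.1% in the 5 libraries of Sst-neurons and 31.4% to 38.5% in the 5 libraries of Thy1-neurons. Among mRNA entries, 62.7% had at least 200 fragments over the libraries inside the 4 stretches described next, against 17.6% outside. Counts outside may thus be incomplete, and these shares and the levels below refer to the table, not to whole libraries. Entries in 4 stretches of chromosomes were taken to hold full counts, and all 7 genes lay in them, 6 on chromosome 16 and Fau on chromosome 19. This rests on a comparison of the counts with group values given with the study for Sst and Thy1+Nic. The groups Sst+Nic and Thy1 were not compared. In a group, 14 of 35 genes on chromosome 16 and 8 of 10 on chromosome 19 came within 1%. Full counts are therefore less certain for the 6 genes on chromosome 16. Departures of up to about 3-fold were accepted within a stretch, so that the term full counts does not mean exact counts. Of 40 marker genes of cell types with an entry, only 3 (Sst, Chodl and Cldn5) lay in these stretches. Sst, the peptide that defines the interneurons, was between 39942 and 133513 CPM (counts scaled to a common library size with TMM factors) in the libraries of Sst-neurons. It was at 4276 CPM in Thy1 replicate 3 and at most 58.1 CPM in the other libraries of Thy1-neurons. Chodl had at most 1 fragment in a library, and the endothelial marker Cldn5 was at 0 in 6 libraries and between 7.73 and 37.8 CPM in Sst replicate 2, Sst+Nic replicate 3 and Thy1+Nic replicates 1 and 3.

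Ribosomes read mRNA in steps that use separate sets of proteins. Initiation factors bind the cap at the start of the mRNA, unwind its leader and bring the initiator tRNA, ribosomal proteins form the small and the large subunit together with rRNA, and release factors end synthesis at the stop codon. Neurons make protein in the cell body and near synapses, and control of initiation, above all through eIF2B and the cap-binding complex, is a known point at which they adjust synthesis to activity and stress. Many mRNAs of ribosomal proteins begin with a stretch of pyrimidines, through which their translation is regulated together.

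The start-site sequences were taken from RefSeq (GRCm38.p6), which held all 7 genes. The sequences below are shown because the ribosomal protein genes and Eif2b5 share a stretch of letters near an annotated start that Eif4a2, the most abundant of the 7 mRNAs, lacks. Each runs from 60 bases before to 25 bases after an annotated start on the plus strand. For Rpl35a, which had 3 annotated starts, the second is shown (chr16:33056422-33056506), and the others are Fau (chr19:6057887-6057971), Eif2b5 (chr16:20498757-20498841) and Eif4a2 (chr16:23107408-23107492). Capitals mark matches to CTTCCTCTTTC, a pyrimidine run and the longest run of letters that the windows of Rpl35a, Fau and Eif2b5 share, to CCATCTT, to TGACGTCA, the palindrome bound by CREB factors, and to GGGCGG, the GC box, on either strand.
Rpl35a: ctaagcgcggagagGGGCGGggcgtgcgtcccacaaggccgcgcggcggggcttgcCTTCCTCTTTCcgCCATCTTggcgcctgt
Fau: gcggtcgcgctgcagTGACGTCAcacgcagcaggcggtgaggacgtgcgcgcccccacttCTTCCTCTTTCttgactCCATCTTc
Eif2b5: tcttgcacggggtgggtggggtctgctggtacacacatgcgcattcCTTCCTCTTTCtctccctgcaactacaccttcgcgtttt
Eif4a2: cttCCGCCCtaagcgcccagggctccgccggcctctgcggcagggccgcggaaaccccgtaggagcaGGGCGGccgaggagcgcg

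The pyrimidine run began 4 bases before the second start of Rpl35a, at the first base from the start shown for Fau and 14 bases before the start shown for Eif2b5. From the other annotated starts of Rpl35a it began at base 26 of the transcript and 36 bases before the start. Earlier gene starts are also annotated, at 20498795 for Eif2b5 in RefSeq and at 6057844 for Fau in GENCODE vM21. Counted from those, the run lies within the gene. Of the 32851 windows of 300 bases in the RefSeq table, 0.225% held it on either strand. CCATCTT was in the windows of Rpl35a and Fau and in 6.34% of all windows. TGACGTCA was in the window of Fau and in 1.79% of all windows, and CACGTG, the E-box, was in the window of Eif4g1 and in 7.15%. GGGCGG was in the windows of 6 of the 7 genes, Eif2b5 being the exception, and in 35.7% of all windows, and no motif overlapped another in the stretches shown. The letters were chosen after these sequences had been seen, and a match is a description of the sequence.

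Per kilobase of exon, Eif4a2 was the most abundant of the 7 mRNAs with a mean of 2684 CPM per kb over the 10 libraries. It ranked at number 4 among 673 mRNA entries with full counts. Eif4a2 encodes the second form of eIF4A, the RNA helicase of the cap-binding complex. Fau, whose product is cut into the small-subunit protein RPS30 and a ubiquitin-like peptide, had 1437 CPM per kb and rank 8. Rpl35a, a protein of the large subunit, had 705 CPM per kb and rank 18. This mean joins unlike groups, with 261 and 196 CPM per kb in Sst and Sst+Nic and 986 and 1300 in Thy1 and Thy1+Nic, and the rank is that of the pooled mean, not of either cell type. Much lower were Gspt1 (78.8 CPM per kb), Abcf3 (68.3), Eif2b5 (38.6) and Eif4g1 (30.7). The gap between Rpl35a and Gspt1 was the only break between neighbours in this order at which the ranges over libraries did not overlap. Eif4a2 exceeded Fau in 9 of 10 libraries and Fau exceeded Rpl35a in 10 of 10. Gspt1 exceeded Abcf3 in only 6 of 10 libraries, and Eif2b5 exceeded Eif4g1 in 7 of 10. Eif4g1, the large scaffold that joins the cap-binding protein, the helicase and the small subunit, thus had the lowest mean of the 7 per length. Its range overlapped that of Eif2b5, and its helicase partner led the order. Exon lengths ran from 816 bases for Rpl35a to 5795 for Eif4g1. Whether the amplified cDNA covered short and long transcripts alike was not tested.

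**Figure D1:**
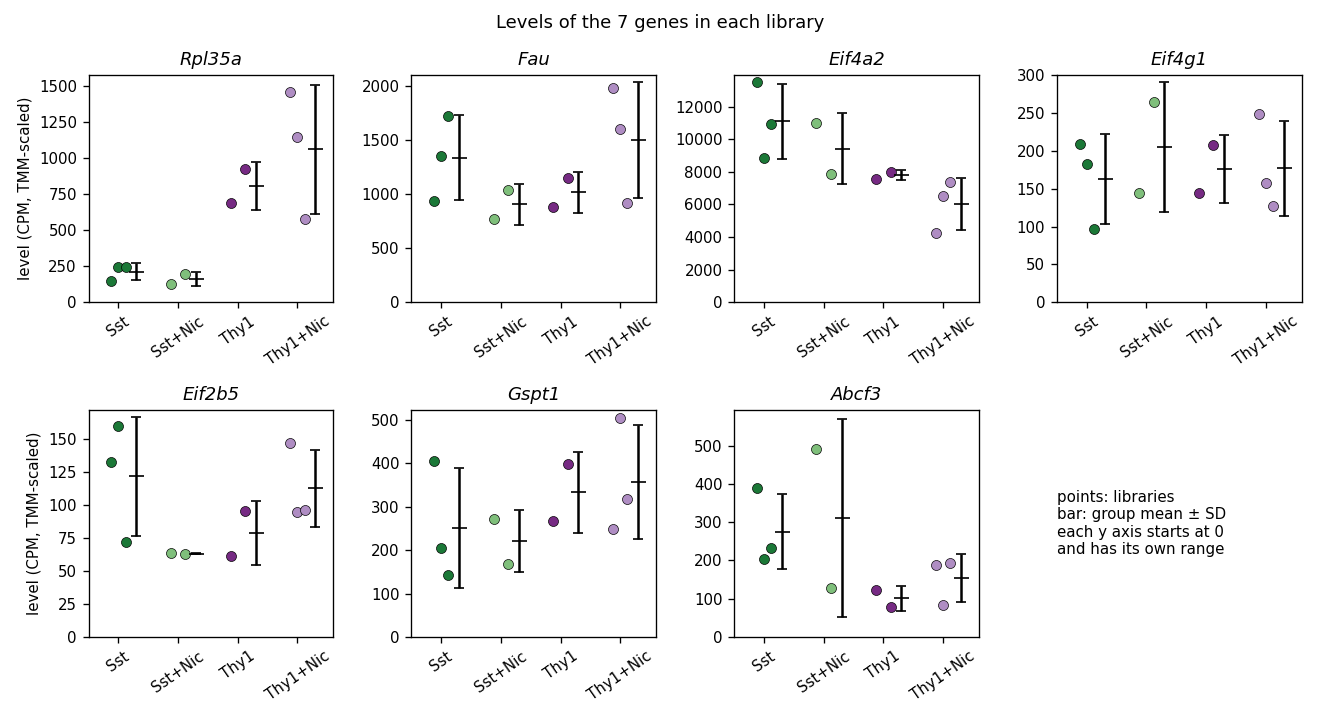
Levels of the 7 genes in CPM (TMM-scaled) on the vertical axes, by group on the horizontal axes; points are libraries and bars are the group mean ± SD (n = 3, 2, 2 and 3), with an axis from 0 for each gene. The 5 points of Sst-neurons for Rpl35a lie between 126 and 248 CPM, below the 5 points of Thy1-neurons between 575 and 1459 CPM, while the ranges of the cell types overlap for Fau and Eif4g1.

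The first question was whether these genes differ between Sst- and Thy1-neurons. Rpl35a was several times lower in Sst-neurons, with and without nicotine, and it was the only one of the 7 called a DEG (adjusted p under 0.05 by Benjamini-Hochberg and a fold change above 2). Fau, the other ribosomal protein gene, did not share this difference. Eif4a2 with either treatment, and Abcf3 without nicotine, lay higher in every library of Sst-neurons than in those of Thy1-neurons of the same treatment but were not called. With nicotine the groups of Abcf3 overlapped, and its direction rested on Sst+Nic replicate 2.

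Without nicotine, Rpl35a was at 148, 244 and 248 CPM in the 3 libraries of Sst and at 687 and 922 CPM in the 2 libraries of Thy1. The means were 213 ± 56.3 (SD, n = 3) and 805 ± 166 CPM (SD, n = 2). Each Thy1 library was more than double the highest Sst library, so the groups did not overlap. The log2 fold change was -1.92 (standard error, SE, 0.30; adjusted p = 0.033, edgeR quasi-likelihood test), which is 3.78-fold lower in Sst-neurons. In this comparison 1 of the 7 genes was called, against 1.72% of the 6350 entries tested (0.898% were called lower in Sst-neurons, and of the entries with full counts 24 of 502 were called), and the groups did not overlap for 3 of the 7 (Rpl35a, Eif4a2 and Abcf3), against 35.1% of the entries. The call was lost with each of the 5 libraries left out in turn, when the adjusted p of edgeR lay between 0.0532 (without Sst replicate 1) and 0.199 (without Thy1 replicate 3), and with the replicate number as a block (adjusted p = 0.0539). The log2 fold change stayed between -2.17 and -1.70 in these fits. Thy1 replicate 3, the library with the Sst transcript, had the higher Rpl35a level of its group.

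With nicotine, Rpl35a was at 126 and 193 CPM in Sst+Nic and at 1459, 1148 and 575 CPM in Thy1+Nic. The groups again did not overlap, and Thy1+Nic replicate 3 was the lowest of its group at about 3 times the higher Sst+Nic library. The log2 fold change was -2.73 (SE 0.49, adjusted p = 0.0678, edgeR), which missed the threshold; 0 of the 7 genes were called, against 0.507% of 6509 entries and 9 of the 517 with full counts, and 1 had an unadjusted p under 0.05, against 15.7%. Rpl35a was called in this comparison by DESeq2 (adjusted p = 2.22e-07, 7.45% of all entries called) and by limma voom (adjusted p = 0.0354, 0.999%). With edgeR it was called with all libraries in 1 fit (adjusted p = 0.00783, 1.27%), without the filter on low counts (2.65%) and with full-count entries alone (3.31%). It was not called with RLE factors, library totals, mitochondrially encoded genes left out or the replicate block (adjusted p = 0.236, edgeR). Nor was it called with any of the 5 libraries left out. The comparison shares no library with that of Sst and Thy1.

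**Figure D2:**
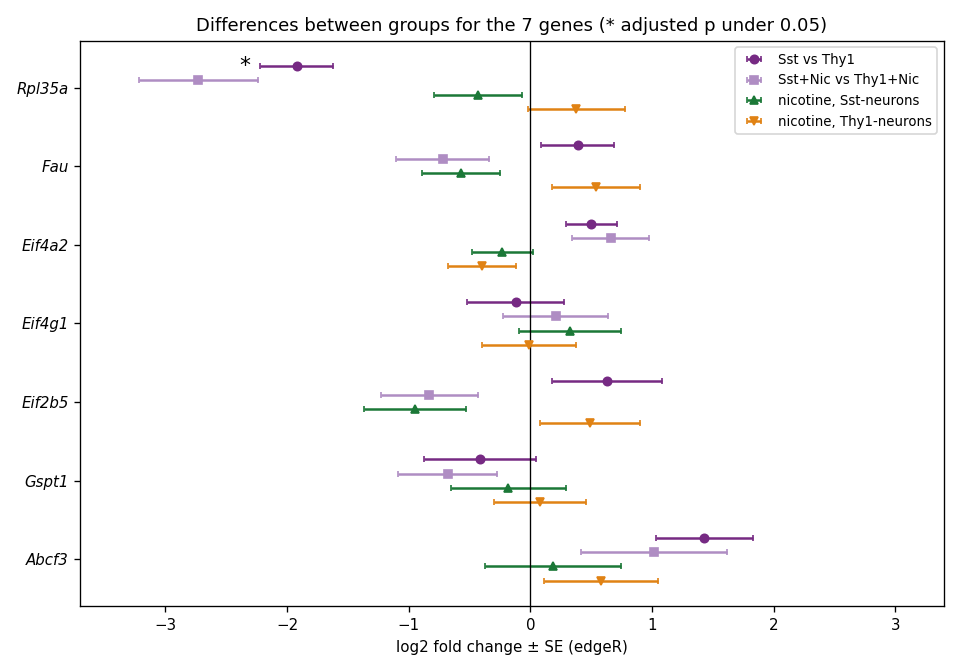
Log2 fold changes with standard errors from edgeR (horizontal axis) for the 7 genes (vertical axis) in 4 comparisons, marked by colour and shape; comparisons of cell types are Sst over Thy1, those of nicotine are treated over saline, and the asterisk marks the call. Rpl35a stands apart at -1.92 and -2.73 in the comparisons of cell types, and its values for nicotine are -0.43 and 0.38.

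Fau was at 939, 1346 and 1723 CPM in Sst and at 882 and 1147 CPM in Thy1, and the groups overlapped. The log2 fold change was 0.39 (SE 0.30, adjusted p = 0.621, edgeR). With nicotine Fau was at 772 and 1039 CPM in Sst+Nic and at 1975, 1600 and 919 CPM in Thy1+Nic, with a log2 fold change of -0.72 (SE 0.38, adjusted p = 0.448, edgeR). The only other gene of a cytosolic ribosomal protein with full counts and a level above 0 was Rpl24, of the large subunit. Its log2 fold changes were 0.16 without and -0.63 with nicotine (adjusted p = 0.92 and 0.63, edgeR).

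Ratios within a library need no scaling between libraries, and were taken after the values had been seen. For every 100 fragments of Fau there were 15.8, 18.1 and 14.4 fragments of Rpl35a in Sst, 16.4 and 18.6 in Sst+Nic, 77.9 and 80.4 in Thy1, and 73.9, 71.8 and 62.6 in Thy1+Nic. The 5 libraries of Sst-neurons were thus at 16.6 ± 1.71 (SD, n = 5) and the 5 of Thy1-neurons at 73.3 ± 6.87 (SD, n = 5), a gap many times the spread within either. On the log2 scale the mean ratio was 4.41-fold lower in Sst-neurons, given as a description since Rpl35a had already been seen to separate the cell types. Against Rpl24 the ratio was 22.9 ± 2.22 and 96.9 ± 8.94 fragments per 100 (SD, n = 5 and 5), or 4.22-fold lower in Sst-neurons. Fau per 100 fragments of Rpl24 overlapped between the cell types, at 139 ± 18.2 in Sst-neurons and 133 ± 19.4 in Thy1-neurons (SD, n = 5 and 5). Within each cell type, the level of Rpl35a moved with that of Fau from library to library. Sst replicate 1, low for Rpl35a in its group, was also the lowest for Fau, and Thy1+Nic replicate 3 was the lowest of its group for both.

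**Figure D3:**
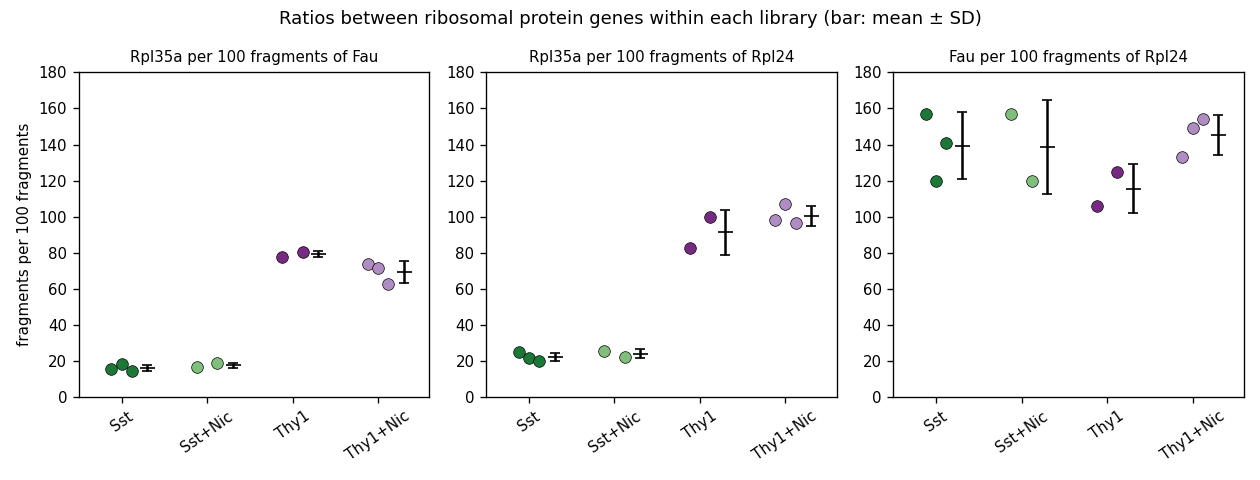
Fragments of one ribosomal protein gene per 100 fragments of another in the same library (vertical axes, common range from 0) by group (horizontal axes), with points for libraries and bars for the mean ± SD. Rpl35a sits between 14.4 and 18.6 per 100 fragments of Fau in Sst-neurons and between 62.6 and 80.4 in Thy1-neurons, while Fau per 100 fragments of Rpl24 ranges from 120 to 157 and from 106 to 154.

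Both ribosomal protein genes have near-identical copies elsewhere in the genome, and how reads that fit several copies were counted is not given in the sources used here. Whether reads of FVB and B6 mice were counted alike at these genes and copies was not tested, and cannot be told apart from a difference between the cell types. In GENCODE vM21, 16 processed pseudogenes shared at least 50 words of 31 bases with Rpl35a. Of these, 10 had an entry, and together they held 443 fragments in the 5 libraries of Sst-neurons and 493 in those of Thy1-neurons. Only 2 of the 10 entries lay in stretches with full counts, so the counts of the others may be incomplete. Fau had 1 such copy, Gm9843, which was counted at 4.85 to 5.79 fragments per 100 fragments of Fau in every library. With the fragments of the copies added to both genes, the ratio of Rpl35a to Fau lay between 14.5 and 20.6 per 100 in Sst-neurons and between 60.6 and 79.9 in Thy1-neurons.

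Rpl35a and Fau are short transcripts, with 816 and 859 bases of exon. Among the other entries with full counts and under 1000 bases of exon, the median log2 fold change was 0.08 without nicotine (18 entries) and -0.88 with nicotine (18 entries), compared with -0.10 and -0.14 in the longer entries (414 and 433). A shift of short transcripts thus accompanied the comparison with nicotine, and its part in the values of Rpl35a and Fau there was not tested. In either comparison 1 of the 18 short entries had a log2 fold change below -1.5.

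The helicase gene Eif4a2 was at 13487, 8875 and 10930 CPM in Sst and at 7567 and 8017 CPM in Thy1. With nicotine it was at 10966 and 7879 CPM in Sst+Nic and at 4223, 6511 and 7350 CPM in Thy1+Nic. All libraries of Sst-neurons lay above all libraries of Thy1-neurons of the same treatment, although Sst+Nic replicate 3 at 7879 CPM was close to the highest Thy1+Nic library. The log2 fold changes were 0.50 (SE 0.21, unadjusted p = 0.0499, adjusted p = 0.306) and 0.66 (SE 0.32, adjusted p = 0.38, edgeR), and neither was called. The last exons of Eif4a2 overlap Rfc4 on the opposite strand, and whether the counting used strand is not given in the sources used here; Rfc4 had 2562 fragments over the 10 libraries, compared with 335787 for Eif4a2.

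Eif4g1, the scaffold, was at 209, 183 and 96.1 CPM in Sst and at 144 and 208 CPM in Thy1. The groups overlapped, and the log2 fold change of -0.12 (SE 0.40, adjusted p = 0.969, edgeR) turned to 0.08 with library totals in place of TMM. It was at 144 and 265 CPM in Sst+Nic and at 248, 157 and 127 CPM in Thy1+Nic, with a log2 fold change of 0.21 (SE 0.43, adjusted p = 0.928, edgeR) that was -0.32 without Sst+Nic replicate 3.

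Eif2b5, the catalytic epsilon subunit of eIF2B, the exchange factor that reloads eIF2 with GTP, was at 133, 160 and 72.1 CPM in Sst and at 61.8 and 95.9 CPM in Thy1. The ranges overlapped because Sst replicate 3 was low (log2 fold change 0.63, SE 0.45, adjusted p = 0.596, edgeR). With nicotine the order was the opposite, at 63.4 and 62.8 CPM in Sst+Nic and at 147, 95 and 96.5 CPM in Thy1+Nic. These groups did not overlap, and the log2 fold change was -0.83 (SE 0.40, adjusted p = 0.387, edgeR). With library totals in place of TMM they did overlap, at 85.4 and 70.3 CPM in Sst+Nic and at 124, 75.2 and 91.9 CPM in Thy1+Nic. With TMM, the groups with nicotine did not overlap for 3 of the 7 genes (Rpl35a, Eif4a2 and Eif2b5), against 34.6% of the entries tested.

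Gspt1 encodes eRF3a, the GTPase that works with eRF1 in termination. It was at 406, 205 and 143 CPM in Sst and at 267 and 399 CPM in Thy1, and Sst replicate 1 was the highest of these 5 libraries. The log2 fold changes were -0.41 without nicotine (SE 0.46, adjusted p = 0.792) and -0.68 with nicotine (SE 0.41, adjusted p = 0.535, edgeR), and the groups overlapped in both. The antisense entry 2610020C07Rik, which overlaps exons of Gspt1, had 362 fragments over the 10 libraries, compared with 10896 for Gspt1.

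Abcf3 encodes an ABC-F ATPase related to yeast Gcn20, a partner of Gcn1 in the activation of the eIF2 kinase Gcn2. It was at 388, 205 and 233 CPM in Sst and at 124 and 78.6 CPM in Thy1, and these groups did not overlap. The log2 fold change was 1.43 (SE 0.40, unadjusted p = 0.0087, adjusted p = 0.145, edgeR). DESeq2 called it (adjusted p = 0.0125, 8.55% of all entries called), as did edgeR with no filter on low counts (adjusted p = 0.0151, 3.28%). No other setting called it, and neither did any fit with a library left out. With nicotine the libraries were at 492 and 128 CPM in Sst+Nic and at 187, 82.8 and 193 CPM in Thy1+Nic. Sst+Nic replicate 2 lay above all Thy1+Nic libraries and Sst+Nic replicate 3 within their range, and the log2 fold change of 1.02 (SE 0.60, adjusted p = 0.515, edgeR) was -0.28 without Sst+Nic replicate 2. In the comparison without nicotine, 3 of the 7 genes (Rpl35a, Abcf3 and Eif4a2) had an unadjusted p under 0.05, against 16.3% of the entries tested. Abcf3, Eif2b5 and Eif4g1 lie close together on chromosome 16 (starts at 20548577, 20498817 and 20668313 in GENCODE vM21, GRCm38), and their differences between cell types had no common sign. Without Thy1 replicate 3, the library of Thy1-neurons in which the Sst transcript was high, the log2 fold changes of Sst over Thy1 were 0.59 for Fau, 0.53 for Eif4a2, 0.16 for Eif4g1, 0.97 for Eif2b5, -0.11 for Gspt1 and 1.13 for Abcf3, of which that of Eif4g1 had turned in sign. This leaves a single Thy1 library, which the fit takes to vary like those of Sst.

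The second question was the effect of nicotine. In Sst-neurons, 0 of the 7 genes were called, and 0% of 6689 entries were; at an unadjusted p under 0.05 there were also 0 of the 7, against 4.19% of the entries, and DESeq2 called 15 entries but 0 of the 7. The log2 fold changes of the 7 genes lay between -0.95 and 0.33, with 5 below 0, and their median was -0.23, beside 0.05 over all entries tested. The lowest was that of Eif2b5, whose Sst+Nic libraries at 62.8 and 63.4 CPM were below each Sst library (72.1 to 160 CPM). Its log2 fold change was -0.95 (SE 0.42, unadjusted p = 0.0602, adjusted p = 1.00, edgeR). With TMM, the groups did not overlap for 1 of the 7 genes (Eif2b5), against 20.6% of the entries. With library totals in place of TMM, Eif2b5 overlapped, at 85.4 and 70.3 CPM in Sst+Nic and at 156, 151 and 76.4 CPM in Sst. Rpl35a had a log2 fold change of -0.43 and Fau of -0.57, and their ranges overlapped between the groups. The other short transcripts (under 1000 bases) had a median of -0.51 in this comparison (16 entries) and the longer ones of -0.04, and the part of this shift in the values of Rpl35a and Fau was not tested.

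In Thy1-neurons, 0 of the 7 genes and 0% of 6048 entries were called, and 0 of the 7 had an unadjusted p under 0.05, against 4.37% of the entries. DESeq2 called 14 entries but 0 of the 7. The log2 fold changes lay between -0.40 and 0.58, with 5 above 0 and a median of 0.38, beside a median of 0.00 over all entries. Eif4a2 was the 1 gene whose groups did not overlap, against 20.7% of the entries. Its Thy1+Nic libraries were at 4223, 6511 and 7350 CPM, below 7567 and 8017 CPM in Thy1 (log2 fold change -0.40, SE 0.28, adjusted p = 1.00, edgeR). Abcf3 had the highest value, 0.58 (SE 0.47, adjusted p = 1.00, edgeR), and Thy1+Nic replicates 1 and 3 lay above both Thy1 libraries while replicate 2 lay between them. The values for Gspt1 (-0.18 and 0.08 in Sst- and Thy1-neurons) and Eif4g1 (0.33 and -0.01) changed sign under other settings, as did that for Abcf3 in Sst-neurons (0.19, but -0.16 with limma voom and -1.13 without Sst+Nic replicate 2), and had no stable direction.

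The third question was whether nicotine acted differently in the 2 cell types, tested as an interaction over all 10 libraries. None of the 7 genes was called (0% of 8242 entries in edgeR, 7 entries in DESeq2), and 2 of the 7 had an unadjusted p under 0.05, against 7.33% of the entries. These were Eif2b5 and Fau, which were lower with nicotine in Sst-neurons and higher in Thy1-neurons by their means. The difference of the log2 fold changes was -1.46 for Eif2b5 (SE 0.62, unadjusted p = 0.0353, adjusted p = 0.673) and -1.12 for Fau (SE 0.50, unadjusted p = 0.0421, adjusted p = 0.673, edgeR). For Rpl35a it was -0.82 (SE 0.56, adjusted p = 0.788, edgeR). The median was -0.67 over 20 other short transcripts and -0.11 over 449 longer ones, and its part in the values of the short genes Fau and Rpl35a was not tested. The nicotine effects in this test use the same libraries as the comparisons of cell types, and the values are not independent of them.

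Over the 10 libraries, the entry most like Rpl35a among 397 others with full counts and a mean of at least 10 CPM was Gap43 (Pearson r = 0.96 of log2(CPM + 1)), which encodes a growth cone protein, followed by the pseudogene Gm10241 (r = 0.95). For Fau they were its own copy Gm9843 (r = 1.00) and Pam16 (r = 0.97), and r between Fau and Rpl24 was 0.92. For Eif4a2 they were Arhgef10 and Dvl3 (r = 0.89 each), for Gspt1 Abhd13 (r = 0.88) and Atp6v1a (r = 0.82), and for Abcf3 Tfg (r = 0.85) and Xab2 (r = 0.84). Eif4g1 (Acy3, r = 0.72, and Abcc1, r = 0.71) and Eif2b5 (Ube2l3, r = 0.65, and Mrpl21, r = 0.60) had no entry as close. Between the members, r was 0.50 for Rpl35a and Fau and -0.84 for Rpl35a and Eif4a2. These values describe 10 libraries that share the split by cell type and the scaling factors.

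Of 356 entries in 7 lists of translation genes, 21 lay in the stretches with full counts, namely the 7 genes and 14 others. Rpl39l had no fragment in any library, which allows up to 3 fragments in each, and Mrpl39 had 4 libraries with fragments, and the other 12 were tested. None of the 12 was called in any of the 5 comparisons by edgeR. In the comparison of Sst and Thy1 their median log2 fold change was 0.29, with 10 above 0, and 2 had an unadjusted p under 0.05, against 16.3% of all entries tested. With nicotine the median was -0.19 and 5 had an unadjusted p under 0.05, against 15.7% of all entries tested. Rpl35a had the lowest log2 fold change of the 19 tested genes in both, and the nearest was that of Rps6kb2, a kinase of ribosomal protein S6, without nicotine (-0.42) and that of Mrpl21 with nicotine (-1.47).

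**Figure D4:**
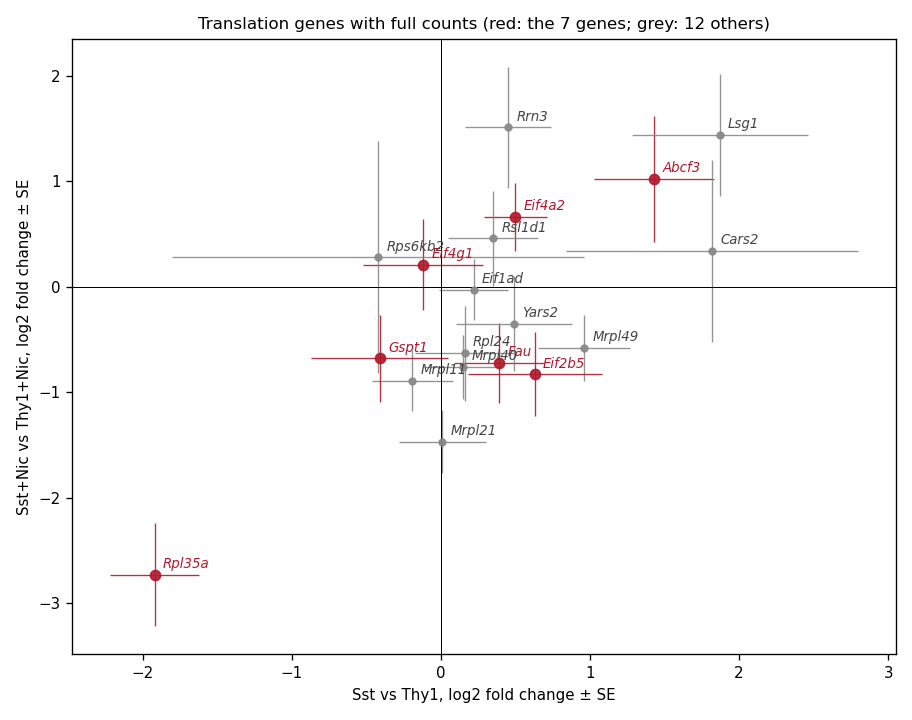
Log2 fold changes with standard errors from edgeR for Sst over Thy1 (horizontal axis) and Sst+Nic over Thy1+Nic (vertical axis); red points are the 7 genes and grey points the 12 other translation genes tested. Rpl35a lies alone at the lower left (-1.92 and -2.73), and Abcf3 lies at the upper right beside Lsg1 (1.87 and 1.44).

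Among these others, Lsg1, a GTPase in the late maturation of the large subunit, was higher in Sst-neurons at 1.87 (SE 0.59, adjusted p = 0.189, edgeR) without and 1.44 (SE 0.58, adjusted p = 0.286, edgeR) with nicotine, the pattern nearest to that of Abcf3. The genes of mitochondrial ribosomal proteins Mrpl11, Mrpl21, Mrpl40 and Mrpl49 had log2 fold changes of -0.19, 0.01, 0.15 and 0.96 without nicotine. With nicotine these were -0.89, -1.47, -0.76 and -0.58, and the groups did not overlap for any of the 4, against 34.6% of the entries not overlapping. Their adjusted p-values in edgeR were 0.228, 0.0962, 0.283 and 0.454, so that none was called. With library totals in place of TMM the groups of Mrpl49 overlapped, at 352 and 358 CPM in Sst+Nic and at 432, 278 and 429 CPM in Thy1+Nic. Those of Mrpl11, Mrpl21 and Mrpl40 stayed apart. For the interaction, Mrpl21, Mrpl40 and Mrpl49 had an unadjusted p under 0.05 (0.00369, 0.0388 and 0.00441), with an adjusted p of 0.673 in edgeR for each. They were 3 of the 12 other genes tested, against 7.33% of all entries tested, and Mrpl11 had an unadjusted p of 0.0979 (edgeR). Rsl1d1, a nucleolar protein, Rrn3, an initiation factor of RNA polymerase I, Eif1ad, which resembles eIF1A, and Yars2, the mitochondrial tyrosyl-tRNA synthetase, had log2 fold changes between 0.22 and 0.49 without nicotine and between -0.35 and 1.51 with it.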

How the data were processed

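RNA of hand-collected neurons was amplified with the SMARTer kit and sequenced in pairs. The authors aligned the reads to the mouse genome with TopHat, and the deposited table holds fragment counts per gene entry, without normalization. HTSeq and GRCm38 are named in the submitters' processing notes. The strand setting and the treatment of reads with several matches are not given in the sources used here. Each of the 10 libraries is from 1 mouse.

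The entries were fitted whole, and the rows of the 7 genes were read from the fits. The quasi-likelihood test of edgeR 4.0.16 (R 4.3.3) was used with TMM and filterByExpr (minimum count 10), for each pair of groups on its 5 libraries and for the interaction on all 10. Calls were set at 0.05 for the p-value after Benjamini-Hochberg adjustment and at 1 for the size of the log2 fold change. The SE is the log2 fold change divided by the root of its F statistic. Positive log2 fold changes mean higher in Sst-neurons or with nicotine. CPM were computed with TMM factors over all libraries, and per kilobase of the exons of CCDS transcripts in GENCODE vM21. In RNA of pooled cells, fewer cells of a type and less RNA per cell cannot be told apart. Counts of the 7 genes were between 215 and 63754 fragments per library, with 95% Wilson intervals of ±0.77% to ±13.4% of the level, which cover counting error only.

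Full counts were assumed in the first parts of chromosomes 7 (to 3.3 Mb), 8 (15.0), 16 (88.3) and 19 (6.4), as set by a comparison with the study's supplementary values, and for mitochondrially encoded genes (904 entries in all). Other entries entered the fits but are not named, apart from copies of Rpl35a. The number of value columns not used was 0.

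The 7 genes, the lists and the motifs were chosen with earlier results of these data known. Genes named beside the 7 were the 2 entries most correlated with each, and, from the lists, called genes and the 10 with the highest levels; others named (Rps6kb2, Rpl39l, Mrpl39, the copies and Sst, Chodl and Cldn5) were chosen after their values were seen. Alternatives were DESeq2 1.42.0, limma voom with quality weights (limma 3.58.1), RLE factors, totals without TMM, mitochondrially encoded genes left out, no filter, 1 fit to all libraries, a block for the replicate number, and each library left out. A fit on entries with full counts alone, the ratios, the copies and the split by length were added with the data in view. Tests on simulated data preceded the fits. Python 3.11.15, pandas 2.3.3, scipy 1.17.1 and matplotlib 3.10.9 were used for the rest.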

Additional observations from a re-analysis of the deposited data

How the results depend on the processing

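Of 308 log2 fold changes of the 7 genes under another setting, 290 kept their direction and their side of the threshold, 10 reversed, 7 became called and 1 (Rpl35a, Sst vs. Thy1, replicate block) lost its call. With a library left out, 21 of 210 reversed and 5, all of Rpl35a in Sst vs. Thy1, lost the call. The reversed values were never called, and the cause was not tested.

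For nicotine in Sst-neurons, the value of Gspt1 was 0.02 with library totals and 0.31 with the replicate block, and that of Abcf3 was -0.16 with limma voom. With a library left out, Eif4g1 ranged from -0.19 to 0.68, Gspt1 from -0.59 to 0.34 and Abcf3 from -1.13 to 0.83. For nicotine in Thy1-neurons, Eif4g1 was at 0.01 with all libraries in 1 fit, and Gspt1 at -0.03 with library totals and at -0.01 with the entries with full counts alone. With a library left out they ranged from -0.34 to 0.30 and from -0.24 to 0.43. For Sst vs. Thy1, Eif4g1 was at 0.08 with library totals and at 0.08 with the entries with full counts alone, and ranged from -0.41 to 0.16 with a library left out. For Sst+Nic vs. Thy1+Nic, the ranges were -0.32 to 0.57 for Eif4g1 and -0.28 to 1.67 for Abcf3. For the interaction, Gspt1 was at 0.05 with library totals and 0.03 with the replicate block, and with a library left out the ranges were -0.11 to 0.39 for Eif4a2, -0.15 to 0.70 for Eif4g1, -0.66 to 0.24 for Gspt1 and -1.71 to 0.28 for Abcf3.

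DESeq2 called 15 entries for nicotine in Sst-neurons, 14 for nicotine in Thy1-neurons, 543 for Sst vs. Thy1 and 485 for Sst+Nic vs. Thy1+Nic. Without the filter on low counts the numbers were 8, 13, 454 and 356, and 36 for the interaction. Limma voom called 65 for Sst+Nic vs. Thy1+Nic and the fit of all libraries 105. The entries with full counts alone gave 33 and 17 for the comparisons of cell types. The totals in place of TMM moved the median of all entries from 0.05 to 0.22 and from 0.09 to 0.59, and the calls in Sst+Nic vs. Thy1+Nic from 15 higher and 18 lower to 17 and 7. Members called were 2 of 7 (Rpl35a and Abcf3) for Sst vs. Thy1 with DESeq2 (8.55% of all entries called) and without the filter (3.28% of 13830), and 1 (Rpl35a) for Sst+Nic vs. Thy1+Nic with DESeq2 (7.45% of all entries called), limma voom (0.999%), no filter (2.65% of 13428), 1 fit (1.27% of 8242) and the entries with full counts alone (3.31% of 514). With a library left out, entries called ranged from 33 to 55 and from 0 (without Thy1+Nic replicate 3) to 56 in these comparisons and from 0 to 5 for the interaction, and members called were 0.

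Same-numbered libraries did not deviate together (r from -0.08 to 0.03 over 13 pairs), so the numbers were not taken as a pairing. The replicate block gave 59 calls for Sst vs. Thy1 and 9 for Sst+Nic vs. Thy1+Nic, with 0 members in either (Rpl35a -1.70, adjusted p = 0.0539, and -2.36, adjusted p = 0.236, edgeR).

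The ratio of Rpl35a to Fau stayed between -2.20 and -2.09 (log2) with each library left out. With totals without TMM, 24 of 28 group levels of the 7 genes moved by less than 1 SD. Leaving the mitochondrially encoded genes out of the library size moved 23 of 28, since the denominator is then smaller.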
